A study of Mus musculus with 8 samples.

Results

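In all, 10 genes of the Notch pathway were examined in open-chromatin maps of mouse liver cells: the ligands Jag1, Jag2 and Dll4, the receptors Notch1, Notch2, Notch3 and Notch4, the modifier Lfng, and the target genes Hes1 and Hey1. All 10 were found among the 21883 protein-coding genes of the mouse annotation. For each gene, every peak was taken that overlapped the gene body or the 10 kb on either side, called a locus peak here. The rule for taking peaks uses no measured value, although the genes were chosen with earlier results of these data known. The 5 maps held 39, 44, 58, 57 and 16 such peaks, in the fixed order used throughout: the EpCAM-high lists (CK19, then Sox9), the Prog-like lists (CK19, then Sox9) and the Tumor list (Sox9).

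The cells came from mice with a triple knockout of the Rb gene family, a model of hepatocellular carcinoma, and all groups share this deletion. Cells were freed with enzymes from liver or from visible lesions and sorted for YFP, which marks cells in which Cre acted on the floxed alleles, and then by surface Thy1 and Epcam. ATAC-seq marks open chromatin by letting a transposase insert adapters into accessible DNA. The 8 samples are EpCam_High_CK19 (2), EpCam_High_Sox9 (1), Thy1+ CK19 (2), Thy1+ Sox9 (1) and Epcam- (2). The labels give no treatment, age, strain, Cre driver or floxed exons, and do not say what CK19 and Sox9 stand for. The files analysed here are 5 peak lists, 1 for each condition, and hold no values per sample. The 2 EpCAM-high lists match sample groups by name, whereas the 2 Prog-like lists and the Tumor list match no label. Each list is therefore a single observation, no test between lists was possible, and differences have no replicate check.

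Notch signalling passes between neighbouring cells. A ligand of the Jagged or Delta-like family on one cell binds a Notch receptor on the next, proteases then free the receptor's intracellular part, and this part joins RBPJ and Mastermind proteins on DNA to switch on genes such as Hes1 and Hey1. In the liver the pathway is known for building bile ducts, where Jag1 and Notch2 are the central pair, and for endothelial cells, where Dll4, Notch1 and Notch4 are used. Fringe proteins such as Lfng add sugars to Notch receptors and so change which ligands they answer to.

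In that order the lists contain 56932, 59454, 71375, 67855 and 39644 peaks. Because lengths differ, each count was also made with every list reduced to its 39644 peaks of highest −log10 p, called equal length. Read depth is unknown. Of the deleted family, Rb1 and Rbl2 each kept a gene-end peak everywhere and Rbl1 did so in the 2 CK19 lists; a peak outside the deleted part does not check the deletion. Of 10 biliary markers, 10, 10, 4, 2 and 3 had a peak within 1000 bp of a gene end. Of 10 macrophage markers the counts were 1, 2, 10, 10 and 1, of 10 hepatocyte markers 6, 7, 1, 1 and 8, and of 10 endothelial markers 2, 2, 5, 4 and 0. Krt19, Krt7 and Cftr, which define bile duct cells, had no locus peak in either Prog-like list, and the macrophage markers Adgre1, Clec4f, Vsig4, Timd4 and Marco had none in the EpCAM-high and Tumor lists. Summed locus peaks were 52, 64, 7, 5 and 20 for the biliary, 8, 12, 75, 74 and 4 for the macrophage and 18, 22, 57, 48 and 14 for the endothelial markers. Of the sort markers, Thy1 had no locus peak in any list and Epcam had 2, 2, 3, 3 and 1. At equal length Epcam had 2, 2, 1, 1 and 1, with none at its gene ends in either Prog-like list, so its order between the kinds of list turned. Every Prog-like against EpCAM-high comparison below is between lists that also differ in these markers. Their part in any difference was not tested.

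The promoters of 6 genes are shown because they span the patterns of opening found here, from a peak in all 5 lists to a peak in none. Each runs from 250 bases before to 50 after the start of transcription on the coding strand (RefSeq, GRCm38.p6, the same build as mm10). Of the 10 genes, 8 have an entry in the promoter table; Hes1 and Hey1 do not. Capitals mark exact matches on either strand to TGGGAA, the core letters bound by RBPJ, and to CACGTG and CACGCG, letters bound by HES and HEY proteins. The Jag1 promoter (chr2:137116471-137116770, minus strand) lay under a peak in all 5 lists, and that of Lfng (chr5:140607091-140607390, plus strand) in all but Tumor. The Jag2 promoter (chr12:112929446-112929745, minus strand) lay under a peak in the EpCAM-high lists alone, and that of Dll4 (chr2:119325534-119325833, plus strand) in the CK19 lists alone. The promoters of Notch3 (chr17:32166841-32167140, minus strand) and Notch4 (chr17:34564045-34564344, plus strand) lay under no peak.
Jag1: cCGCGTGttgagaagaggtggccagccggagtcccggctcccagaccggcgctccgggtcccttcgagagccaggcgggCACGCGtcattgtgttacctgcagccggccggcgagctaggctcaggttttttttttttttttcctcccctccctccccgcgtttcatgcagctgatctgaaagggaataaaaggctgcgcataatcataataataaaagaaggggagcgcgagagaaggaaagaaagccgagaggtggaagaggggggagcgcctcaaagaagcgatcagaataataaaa
Lfng: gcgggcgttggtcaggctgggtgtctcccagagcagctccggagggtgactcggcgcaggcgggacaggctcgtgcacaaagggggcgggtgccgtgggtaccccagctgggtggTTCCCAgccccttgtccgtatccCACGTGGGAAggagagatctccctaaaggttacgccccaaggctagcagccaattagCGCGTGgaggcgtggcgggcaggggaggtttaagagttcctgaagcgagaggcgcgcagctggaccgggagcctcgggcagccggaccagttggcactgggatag
Jag2: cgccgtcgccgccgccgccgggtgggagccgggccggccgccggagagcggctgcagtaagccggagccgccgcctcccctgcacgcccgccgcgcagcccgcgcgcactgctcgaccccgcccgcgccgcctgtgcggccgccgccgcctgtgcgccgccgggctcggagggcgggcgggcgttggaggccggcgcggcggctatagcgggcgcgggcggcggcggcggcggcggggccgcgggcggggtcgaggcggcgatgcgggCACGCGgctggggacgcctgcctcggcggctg
Dll4: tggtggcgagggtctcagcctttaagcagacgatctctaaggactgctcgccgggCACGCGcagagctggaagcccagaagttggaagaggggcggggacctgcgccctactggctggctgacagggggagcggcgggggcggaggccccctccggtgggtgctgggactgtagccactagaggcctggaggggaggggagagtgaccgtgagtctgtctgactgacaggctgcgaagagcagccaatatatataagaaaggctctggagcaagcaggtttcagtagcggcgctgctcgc
Notch3: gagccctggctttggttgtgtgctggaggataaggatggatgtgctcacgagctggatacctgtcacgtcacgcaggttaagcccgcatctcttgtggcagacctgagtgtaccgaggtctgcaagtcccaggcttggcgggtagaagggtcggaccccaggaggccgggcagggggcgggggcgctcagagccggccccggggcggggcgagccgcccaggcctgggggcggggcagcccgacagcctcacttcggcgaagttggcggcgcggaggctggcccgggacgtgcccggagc
Notch4: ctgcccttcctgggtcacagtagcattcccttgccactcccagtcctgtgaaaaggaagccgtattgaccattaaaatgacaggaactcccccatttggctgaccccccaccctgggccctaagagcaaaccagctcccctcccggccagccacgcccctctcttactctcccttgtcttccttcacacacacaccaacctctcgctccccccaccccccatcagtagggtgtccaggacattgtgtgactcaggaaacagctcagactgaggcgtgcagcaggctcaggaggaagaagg

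These promoters differ sharply in CpG content, a property that went with peaks across all promoters. The Jag2 window holds 63 CpG dinucleotides, more than 99.97% of the 14730 promoters in the table, against a median of 13. The windows of Notch2 (41), Notch3 (25), Notch1 (23), Jag1 (22) and Lfng (22) also hold 20 or more, that of Dll4 holds 17, and that of Notch4 holds 5. Among all promoters with 20 or more CpG, a peak was present in 82.1% to 89.5% per list, and among those with 0 to 4 CpG in 5.31% to 7.70%. A peak in none of the 5 lists, the pattern of Notch3, was seen in 6.59% of those with 20 or more (40.1% of all promoters), a peak in the EpCAM-high lists only, the pattern of Jag2, in 2.78% (2.58% of all promoters), and a peak in all lists but Tumor, the pattern of Lfng, in 3.24% (2.47%). Over all promoters, the CK19-only pattern of Dll4 was seen in 0.177%. Notch1, Notch2 and Jag1 shared the commonest pattern, a peak in all 5 lists (41.8% of all promoters). Peaks over the Dll4 promoter were weak, with −log10 q values of 2.59 in EpCAM-high CK19 and 1.86 in Prog-like CK19, close to the lowest values that the lists contain (1.30 to 1.32).

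Lfng alone of the 8 promoters held TGGGAA, which 24.6% of all promoters hold. It had a match on the minus strand 135 bases before the start and one on the plus strand 108 bases before it, the latter inside GTGGGAA (5.94% of promoters) and overlapping a CACGTG (7.72%) 112 bases before the start. CACGCG was found in Notch2, Jag1, Jag2, Dll4 and Lfng, and in 11.9% of all promoters. Other motifs searched on both strands were GGAATG, bound by TEAD factors (13.4% of promoters; in Notch1 and Notch4), TGANTCA, bound by AP-1 (7.09%; Notch4), ACAATG, bound by SOX factors (11.8%; Notch4 and Jag1), and CTTTGNNC, bound by HNF4 (16.6%; Lfng). A match describes letters and does not show binding.

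At the ends of the genes, most members were open in each list taken singly. A gene-end peak, one within 1000 bp of either end of the gene, was present for 9, 8, 8, 8 and 6 of the 10 members in list order. The shares of all protein-coding genes with one were 57.8%, 57.7%, 57.4%, 54.4% and 51.1%. The exact 95% intervals are wide: 55.5% to 99.7% for 9 of 10 and 26.2% to 87.8% for 6 of 10, and cover counting error only. Notch1, Notch2, Notch4, Jag1, Hes1 and Hey1 each had such a peak in every list. This is the pattern of 44.2% of all genes, a share inside the interval for 6 of 10. Notch3 lacked a gene-end peak throughout (32.4%). Jag2, Dll4 and Lfng were the members whose gene-end peak came and went between lists. At equal length the counts were 9, 7, 7, 7 and 6, against 53.2%, 51.1%, 48%, 45.9% and 51.1% of all genes, and Notch1 lost its peak in EpCAM-high Sox9. A gene-end peak in all 5 lists was then left for 5 members, against 38.6% of all genes.

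**Figure D1:**
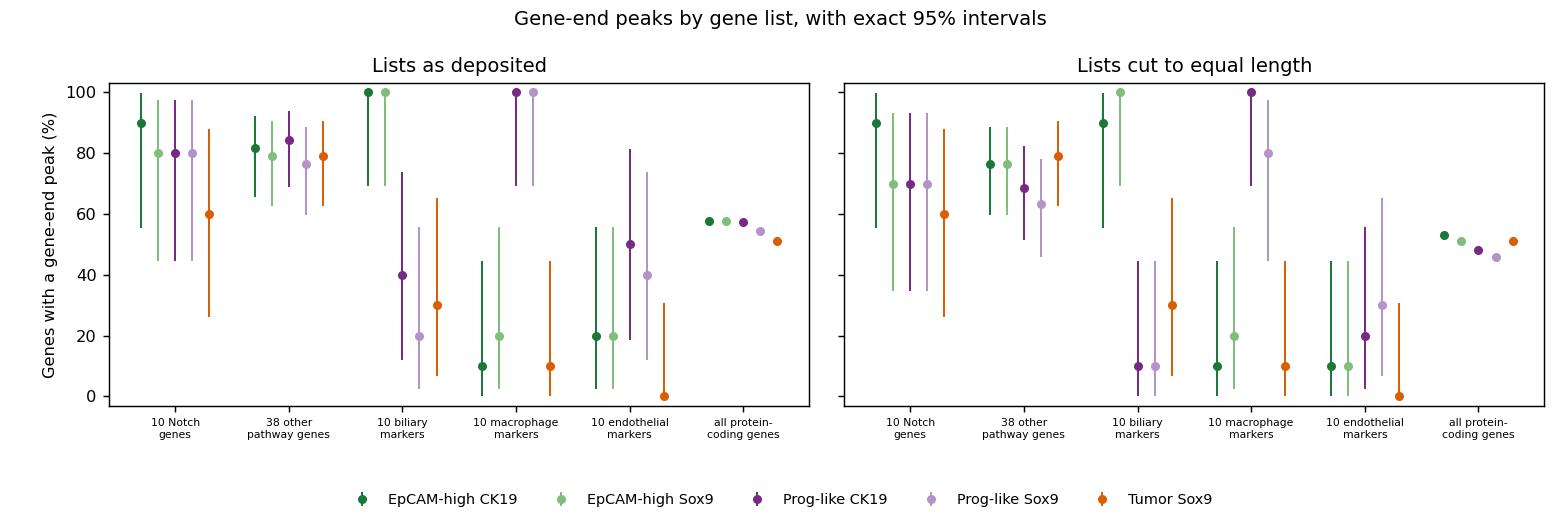
Share of genes with a peak within 1000 bp of either gene end (y axis, percent) for 6 gene lists (x axis), one point per peak list, with lists as deposited on the left and at equal length on the right. Vertical lines are exact 95% intervals for counting error (very short for all protein-coding genes). The 10 Notch genes lie at 60% to 90% in every list, while biliary and macrophage markers change places between the EpCAM-high and Prog-like lists.

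**Figure D2:**
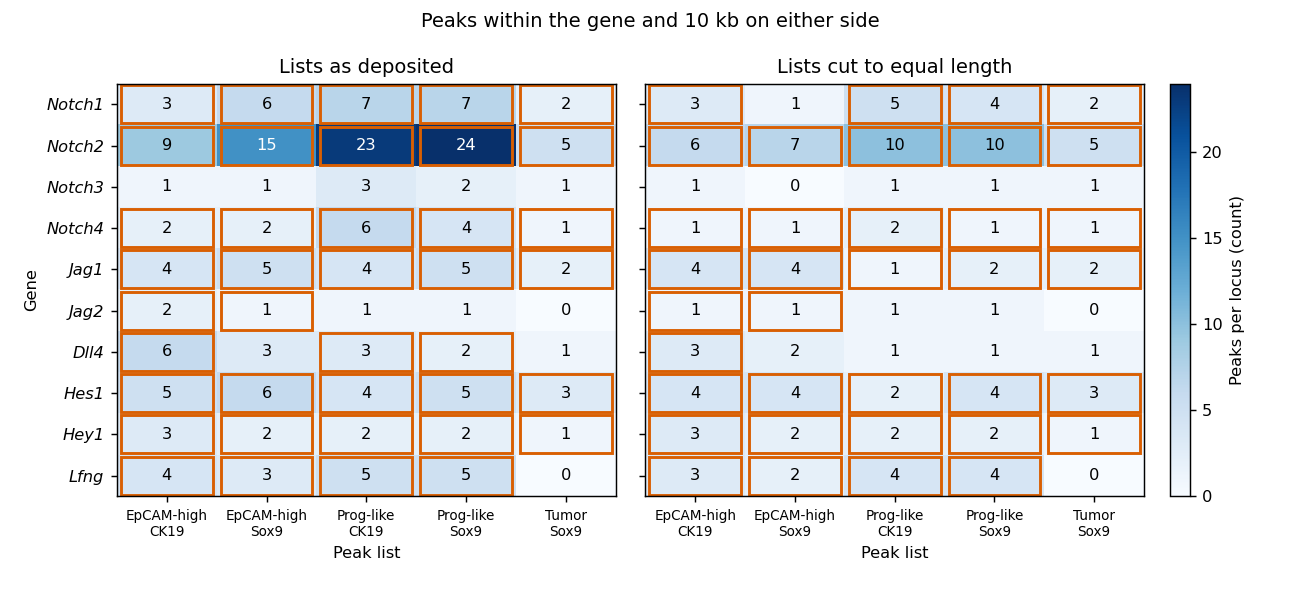
Locus peaks per gene (rows) and peak list (columns), as deposited on the left and at equal length on the right. The colour and the printed number give the count, and an orange outline marks a peak within 1000 bp of either gene end. Notch2 carries the most peaks, and Jag2 and Lfng carry none in Tumor.

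Of the ligands, Jag1 had the peak of highest −log10 q at any of the 10 genes in 4 of the 5 lists; in Prog-like Sox9 regions at Hey1 and Notch2 were higher. The Jag1 gene lies at chr2:137081451-137116520 on the minus strand. The region over its start, chr2:137116040-137117724, was held by all 5 lists, with −log10 q values of 168, 102, 170, 123 and 68.9 in list order. Within their own lists these peaks stood above 98.3%, 97.2%, 92.6%, 91.5% and 99.5% of peaks; such standings describe each list and show no change between lists. A second region 837 bp into the gene, chr2:137114246-137115683, was also held by all 5 (37.3, 20.9, 15.9, 10.3 and 9.52). Jag1 was thus open at its start in every condition, and Tumor kept these 2 regions and no other at this gene.

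Beyond the start, a Jag1 region inside the gene, chr2:137098031-137098953, 17567 bp from the start, was held by the EpCAM-high lists alone, with −log10 q of 22.9 and 48.9. At the far end, chr2:137079837-137081043 was held by all lists but Tumor (19.2, 25.4, 19.1 and 22.6). That region lies inside Slx4ip, which stops 100 bp from Jag1, so it cannot be assigned to either gene. No Jag1 region was held by the Prog-like lists alone. Jag1 had 4, 5, 4, 5 and 2 locus peaks as deposited and 4, 4, 1, 2 and 2 at equal length.

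Jag2, a second Jagged ligand, lies at chr12:112907803-112929812 on the minus strand. The region around its CpG-rich start, chr12:112928477-112930145, was held by both EpCAM-high lists, and the other 3 lists held no peak there. EpCAM-high Sox9 had a peak across the start (−log10 q 9.09). EpCAM-high CK19 had a peak 129 to 1018 bp into the gene (10.3) and a weaker one before the start (6.34). Only the weaker CK19 peak reached the promoter window. At equal length EpCAM-high Sox9 kept its peak, and EpCAM-high CK19 kept only the peak inside the gene. Across all genes, 6.95% were open at a gene end in the EpCAM-high but not the Prog-like CK19 list, and 8.98% in the matching Sox9 pair. The Prog-like lists instead held a region beyond the far end, chr12:112897452-112898039, 31456 bp from the start, with −log10 q of 35.7 and 28.9. Jag2 had no locus peak in Tumor.

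Dll4, the Delta-like ligand of the vascular system, lies at chr2:119325784-119335666 on the plus strand and had 6, 3, 3, 2 and 1 locus peaks. Its start, chr2:119325523-119326274, held only the weak CK19 peaks given above, and EpCAM-high CK19 had another just upstream at chr2:119325112-119325408 (7.93). The lncRNA Gm14207 overlaps this start, and ATAC-seq carries no strand. The EpCAM-high lists alone held chr2:119318449-119318725, 7059 bp upstream (5.97 and 3.23), and chr2:119329168-119329423 inside the gene (7.43 and 11.5). The Prog-like lists alone held chr2:119335951-119336704, past the far end (10.3 and 14).

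One Dll4 region was common to all conditions: chr2:119337560-119338352, 11776 bp from the start, with −log10 q of 20.4, 27.1, 76.8, 20.2 and 24.5. It is the only Dll4 peak in Tumor, where it stood above 86.5% of peaks. At equal length Dll4 kept 3, 2, 1, 1 and 1 locus peaks, and its gene ends were open in EpCAM-high CK19 only.

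Of the receptors, Notch2 had the most peaks and the most differences in position. The gene lies at chr3:98013538-98150367 on the plus strand and had 9, 15, 23, 24 and 5 locus peaks. Notch2 is also the longest member, so counts were set per 10 kb: 0.57, 0.96, 1.47, 1.53 and 0.32, against medians over all genes of 0.32, 0.34, 0.43, 0.39 and 0.25. At equal length the counts were 6, 7, 10, 10 and 5. The start region, chr3:98013061-98014248, was held by all 5 lists, with −log10 q of 23.5, 37.5, 139, 102 and 9.34.

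Of the 38 merged Notch2 regions, 15 were held by both Prog-like lists and neither EpCAM-high list, 4 by both EpCAM-high lists and neither Prog-like list, and 13 by a single list. At equal length these 2-list classes held 8 and 3 regions. The 8 include chr3:98024347-98024831 and chr3:98025394-98026629, which entered the class because EpCAM-high peaks overlapping them were cut. As deposited, the Prog-like regions ran from 7702 bp before the start to 143474 bp past it. By the higher −log10 q of the 2 lists, the top 3 were chr3:98046157-98046818 (161 and 132), chr3:98082980-98084437 (99.4 and 108) and chr3:98032225-98032563 (96.8 and 61.2). In Prog-like Sox9 alone, chr3:98066426-98066876 (86 and 89) stood above the last of these. The region at chr3:98046157-98046818 had a higher −log10 q than the Notch2 start itself in both Prog-like lists.

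The 4 EpCAM-high regions of Notch2 lay inside the gene. Tumor also held 2 of them: chr3:98044659-98045349 (50.4 and 34.3 in EpCAM-high, 14.3 in Tumor) and chr3:98020483-98021152 (38.1, 20.3 and 2.75). The other pair, chr3:98098568-98099081 (37.1 and 34.6) and chr3:98054828-98055316 (23.5 and 6.91), were in the EpCAM-high lists alone. Of the EpCAM-high regions, 2 sat beside a Prog-like one: chr3:98044659-98045349 ended 807 bp before chr3:98046157-98046818, and chr3:98054828-98055316 ended 478 bp before chr3:98055795-98056333. The other EpCAM-high regions of Notch2 lay 11072 bp (chr3:98020483-98021152) and 14130 bp (chr3:98098568-98099081) from the nearest region held by both Prog-like lists and neither EpCAM-high list. Prog-like CK19 peaks outside that class lay nearer, chr3:98024352-98024831 to the first and chr3:98087628-98087905 to the second. At equal length the region at chr3:98054828-98055316 was left in EpCAM-high CK19 only. The lncRNA Gm40103 lies inside Notch2 at chr3:98022306-98026108.

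**Figure D3:**
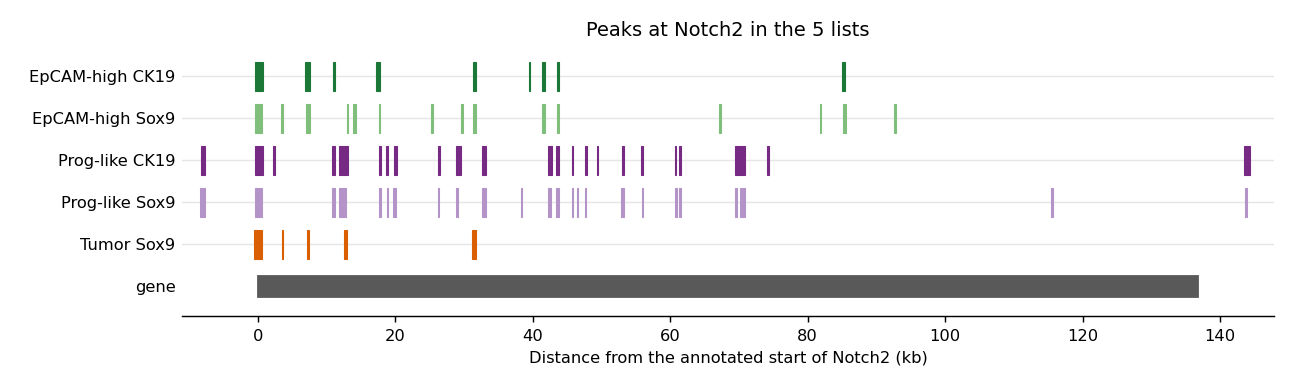
Peaks of the 5 lists along Notch2, drawn to scale as distance from the start of transcription in kb (x axis), with one row per list and the gene body marked. Every list has a peak at the start. Prog-like peaks are spread through the gene body, and the EpCAM-high lists hold other positions, some of them shared with Tumor.

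Notch1, the receptor used most widely in development, lies at chr2:26457902-26503822 on the minus strand and had 3, 6, 7, 7 and 2 locus peaks. Its start, chr2:26503072-26504479, was open in all 5 lists (−log10 q 7.58, 6.51, 37.3, 24.3 and 7.94); the lncRNA Gm35978 begins or ends 105 bp away. Inside the gene, 21094 bp from the start, chr2:26481844-26482728 was held by the EpCAM-high and Tumor lists (18.0, 7.66 and 10.8). The region next to it, chr2:26483068-26483926, was held by the Prog-like lists at 90.9 and 40.7 and by the EpCAM-high lists at 7.10 and 3.36, and not by Tumor. The strongest Notch1 peaks of EpCAM-high CK19 and of both Prog-like lists were thus in adjoining regions. EpCAM-high Sox9 had its strongest at chr2:26495114-26495291 (8.72), which no other list held.

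The Prog-like lists alone held 4 further Notch1 regions, between 4917 and 30876 bp from the start. The 3 with the highest −log10 q were chr2:26492835-26493754 (67.5 and 25.1), chr2:26474956-26475812 (32.4 and 27.9) and chr2:26472300-26472946 (30.8 and 11.9). At equal length Notch1 had 3, 1, 5, 4 and 2 locus peaks, and 2 of these Prog-like regions were left.

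Notch3, a receptor best known from smooth muscle and pericytes, lies at chr17:32120820-32166896 on the minus strand and had 1, 1, 3, 2 and 1 locus peaks. None lay at its start. The closest were inside the gene: chr17:32163968-32164956, 1934 bp from the start, in the Prog-like lists (17.3 and 4.47), and chr17:32162240-32162836, 1131 bp further in, in the EpCAM-high lists (21.0 and 4.92). Tumor's single peak was in the flank beyond the far end, chr17:32113322-32114369, which both Prog-like lists also held (57.4, 32.2 and 4.30) and which lies inside the lncRNA Gm38585. At equal length Notch3 had 1, 0, 1, 1 and 1 locus peaks, and inside the gene only the EpCAM-high CK19 peak was left. Among 10 stellate and smooth muscle markers, 3, 5, 4, 3 and 2 had a gene-end peak as deposited. Of all genes, 51.1% to 57.8% had one per list.

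Notch4, a receptor mainly of endothelial cells, lies at chr17:34564286-34588543 on the plus strand and had 2, 2, 6, 4 and 1 locus peaks. Its start had no peak in any list; a start peak was absent from all lists for 36.3% of genes with a known strand. The Notch4 gene-end peak in all 5 lists was at the other end, chr17:34586897-34587897, with −log10 q of 19.4, 24, 71.1, 29.9 and 12.4. Its summits lay within 195 bp of each other in the 5 lists. Gpsm3 lies 1263 bp and Pbx2 3716 bp past Notch4, so peaks in that flank may belong to neighbours. The Prog-like lists alone held chr17:34561056-34561668, 2627 bp upstream (29.5 and 12.3), and chr17:34589757-34590099, at Gpsm3 (16.2 and 5.86). At equal length Notch4 had 1, 1, 2, 1 and 1 locus peaks. The upstream region was then left in Prog-like CK19 only, and the region at Gpsm3 in no list. Of the 10 endothelial markers, 8, 7, 8, 8 and 6 had a locus peak in list order, and Tie1 had none in any list. Over all 21883 genes, 16588, 16323, 16298, 15833 and 15044 had one.

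Lfng, a fringe enzyme, was open in 4 lists and had no peak in Tumor. The gene lies at chr5:140607341-140615545 on the plus strand and had 4, 3, 5, 5 and 0 locus peaks (3, 2, 4, 4 and 0 at equal length). Its start, chr5:140606919-140607724, was held by those 4 lists, with −log10 q of 14.3, 8.68, 95.4 and 62.3. The summits lay 27, 27, 84 and 28 bases before the start, downstream of the RBPJ letters printed above. A gene-end peak in EpCAM-high Sox9 and not in Tumor was seen for 9.17% of all genes, and one in Prog-like Sox9 and not in Tumor for 8.69%.

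The 2 kinds of list had their strongest Lfng peaks in different places. Inside the gene, chr5:140610569-140611976, 3228 bp from the start, had −log10 q of 75.9 and 53.6 in the EpCAM-high lists, above 90.8% and 89.7% of their peaks. The Prog-like lists held this region at 12.7 and 14, above 25.3% and 31.2% of theirs. Their own strongest Lfng peak was past the gene, chr5:140617576-140618295 (113 and 66.1), and another strong one was upstream, chr5:140596697-140597672 (84.9 and 55.2), both without an EpCAM-high peak. Ttyh3 begins or ends 5032 bp past Lfng.

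The target genes Hes1 and Hey1 were open in all conditions. Hes1, a repressor that Notch induces, lies at chr16:30065357-30067796 and had 5, 6, 4, 5 and 3 locus peaks. A region over its end at the lower coordinate, chr16:30063214-30065661, was held by all 5 lists (−log10 q 18.0, 16.4, 116, 92 and 5.01), and its summits were spread over 1359 bp, the most of any region held by all lists; 4 lists had 2 peaks in it and Prog-like CK19 had 1. A region past the other end, chr16:30069880-30071063, was also held by all 5 (21.4, 30.0, 9.41, 21.2 and 8.58) and overlaps the lncRNA Gm32998. One over the gene body, chr16:30066536-30067217, was held by all but Tumor (5.73, 5.35, 11.3 and 8.17). In the flanks, chr16:30059187-30059676 was held by the Prog-like lists alone (41.3 and 22.4) and chr16:30073467-30073951 by the EpCAM-high lists alone (6.88 and 7.38). At equal length Hes1 had 4, 4, 2, 4 and 3 locus peaks. The gene-body region was then in no list, and chr16:30073467-30073951 was left in EpCAM-high CK19 only. Prog-like CK19 no longer held the region at chr16:30069880-30071063.

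Hey1, a related repressor, lies at chr3:8663359-8667038 and had 3, 2, 2, 2 and 1 locus peaks, the same at equal length. The region over its end at the higher coordinate, chr3:8666675-8668164, was held by all 5 lists, with −log10 q of 64.7, 89.6, 155, 166 and 14.7. The gene LOC115489673 overlaps that end. A region inside Hey1, chr3:8664551-8664977, was held by all but Tumor (8.86, 14.7, 70.2 and 64.0). Unlike each of the other 9 genes, Hey1 had no region held by both lists of one kind and neither of the other. EpCAM-high CK19 alone held chr3:8659742-8660169 (13.3).

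**Figure D4:**
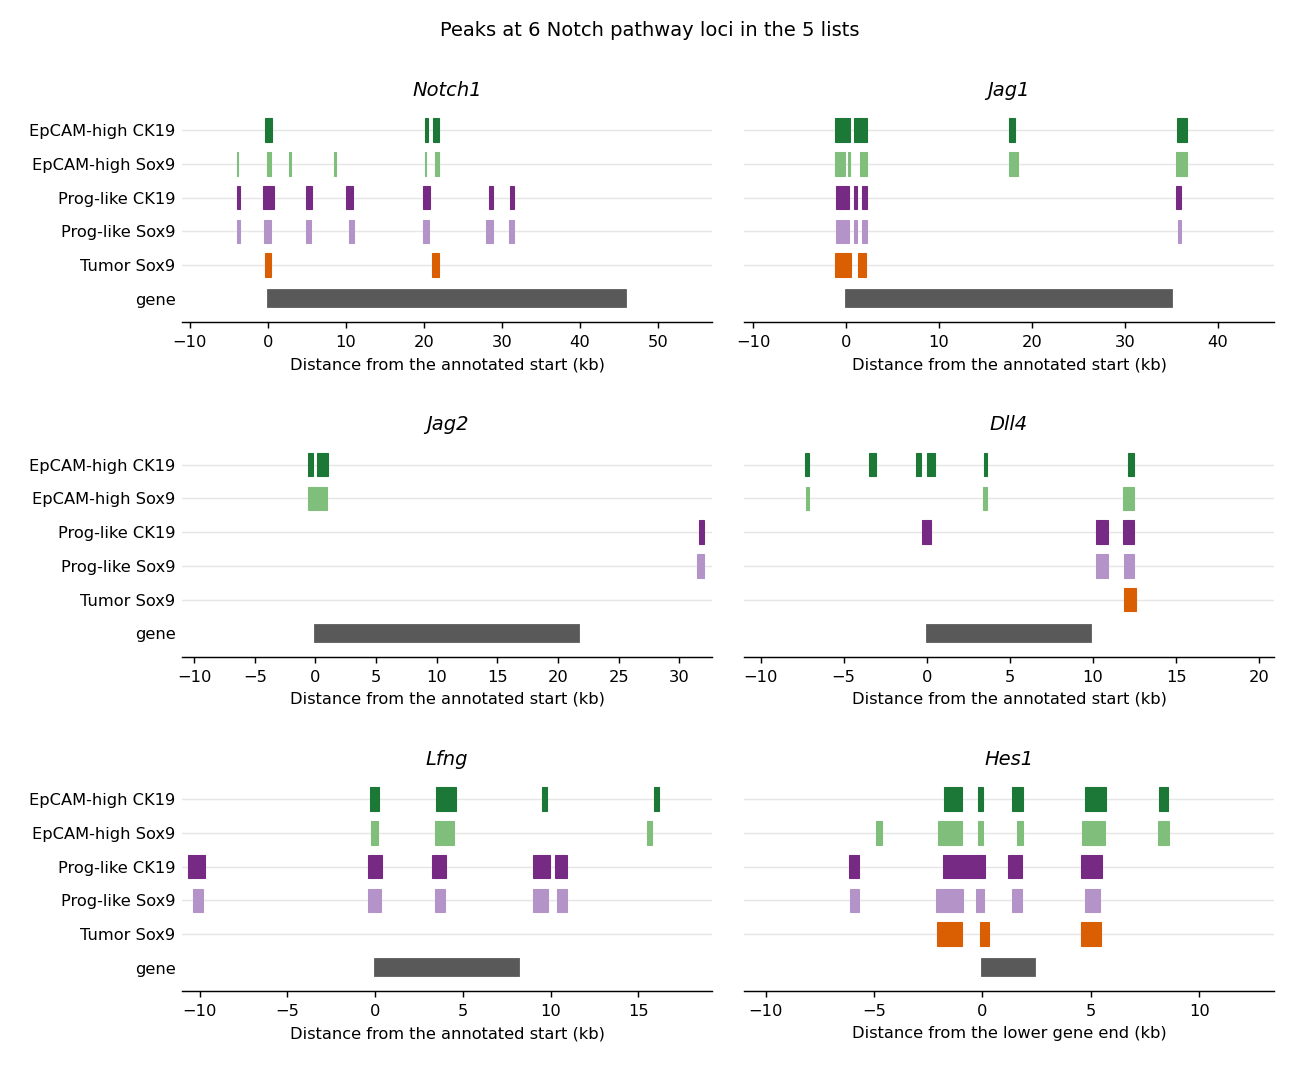
Peaks of the 5 lists along 6 of the loci, drawn to scale as distance in kb from the start of transcription, or from the lower end where the strand is not in the table (x axes), one row per list. Shared peaks stand at the gene ends of most panels, and Tumor has no peak along Lfng or Jag2.

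Set side by side over all 10 genes, the Prog-like lists had more locus peaks than the EpCAM-high lists as deposited, and this excess was smaller or gone at equal length. Prog-like CK19 exceeded EpCAM-high CK19 by 19 peaks, with 5 members higher (42.5% of all genes were) and 4 lower (20.6%). Prog-like Sox9 exceeded EpCAM-high Sox9 by 13, with 5 members higher (36.4%) and 2 lower (25.1%). At equal length the differences were 0 and 6. Notch2 carried most of it: without Notch2 they were 5 and 4 as deposited, and −4 and 3 at equal length.

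Tumor had fewer peaks than the Sox9 lists of both other kinds. Its sum was below that of EpCAM-high Sox9 by 28 peaks, with 9 members lower (38% of all genes) and 0 higher (13.2%). Against Prog-like Sox9 it was below by 41, with all 10 members lower (44.9% of all genes) and 0 higher (15.7%). At equal length Tumor still had 8 and 14 fewer, with 7 and 6 members lower (22.1% and 25.7% of all genes) and 2 and 0 higher (24.1% and 27.7%). Without Notch2 the differences were −18 and −22 as deposited and −6 and −9 at equal length. The median member differed by −1 in both comparisons at equal length, against 0 over all genes.

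The CK19 and Sox9 lists of one kind were also set side by side. Prog-like CK19 and Prog-like Sox9 differed by 1 peak in sum as deposited and by −1 at equal length. EpCAM-high CK19 minus EpCAM-high Sox9 was −5 as deposited and 5 at equal length, so the direction depended on list length. Single genes of the EpCAM-high lists differed too: as deposited, Notch2 had 9 peaks in CK19 and 15 in Sox9, Notch1 3 and 6, and Dll4 6 and 3. At equal length the counts were 6 and 7 for Notch2, 3 and 1 for Notch1, and 3 and 2 for Dll4. At equal length 5 members were higher in the CK19 list of this kind and 1 in the Sox9 list. At the gene ends of the EpCAM-high lists as deposited, only Dll4 had a peak in CK19 and not in Sox9, as did 2.99% of all genes; at equal length Notch1 and Dll4 did.

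Positions were then compared by merging overlapping peaks of 2 lists into regions. Prog-like CK19 and Prog-like Sox9 shared 51 of 61 member regions, or 83.6% (exact 95% interval 71.9% to 91.8%), against 74.5% genome-wide. EpCAM-high CK19 and EpCAM-high Sox9 shared 29 of 52, or 55.8% (41.3% to 69.5%), against 51.9%. Between kinds, Prog-like and EpCAM-high lists shared 21 of 74 in the CK19 set, 28.4% (18.5% to 40.1%; 19.9% genome-wide), and 21 of 80 in the Sox9 set, 26.2% (17% to 37.3%; 19.1%). Tumor shared 14 of 45 with EpCAM-high Sox9, 31.1% (18.2% to 46.6%; 33.1%), and 12 of 60 with Prog-like Sox9, 20% (10.8% to 32.3%; 17.9%). All 6 genome-wide shares lay within the members' intervals, so the Notch genes were not told apart from other loci at this number of regions. The genome-wide regions include those far from any gene, unlike the member regions. Neighbouring regions are not independent, and true intervals are wider.

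With all 5 lists merged, the 10 genes held 87 of 138775 regions. Both Prog-like lists alone held 27 of them, 31.0% (21.5% to 41.9%), against 25.8% genome-wide, and both EpCAM-high lists alone held 8, 9.20% against 9.32%. All 5 lists held 9, 10.3% against 9.75%. Regions in every list but Tumor numbered 8, at Notch1, Notch2, Jag1, Hes1, Hey1 and Lfng, or 9.20% (4.05% to 17.3%), against 2.63%. Tumor alone held 0 of 87 regions (0% to 4.15%), against 8.45% genome-wide. Notch2 supplied 38 of the 87 regions. All 87 overlap a gene or the 10 kb on either side, whereas the genome-wide regions include those far from any gene. What nearness to genes adds to the differences in share was not tested. For the last 2 classes, with lists as deposited, the genome-wide share fell outside the counting interval. It also did so for regions in exactly 1 list, 26.4% (17.6% to 37.0%) against 38.8%. The same held for regions present in Tumor, 17.2% against 28.2%, in Prog-like CK19, 65.5% against 51.1%, and in Prog-like Sox9, 60.9% against 46.8%. The genome-wide shares for these further classes lay inside the intervals at equal length. At equal length, with 51 regions, Tumor alone again held 0, against 16.7%, and its interval (0% to 6.98%) still left that share out. All lists but Tumor then held 2, 3.92% (0.478% to 13.5%) against 1.79%, which no longer stood apart. All 16 Tumor peaks at these genes thus lay in regions that another list also held.

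**Figure D5:**
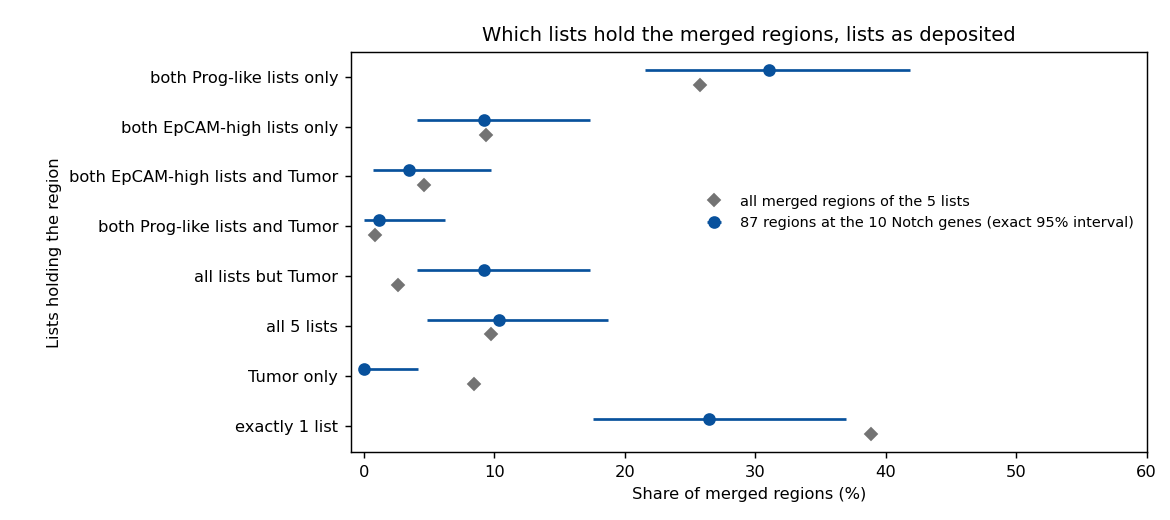
Share of merged regions (x axis, percent) by the lists that hold them (y axis), for the 87 regions at the 10 Notch genes (blue, with exact 95% intervals for counting error) and for all merged regions, near genes or not (grey). The blue point lies above the grey one for regions in all lists but Tumor and below it for regions in Tumor only and in exactly 1 list.

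For the rest of the pathway, 38 further genes were counted. Gene-end peaks were present in 31, 30, 32, 29 and 30 of them, above the shares of all genes given earlier, and in 29, 29, 26, 24 and 30 at equal length. By role, as deposited, the counts were 1 of 4 other ligands in each list, 3, 3, 4, 4 and 3 of 4 glycosylation genes, and 7 of 8 protease genes in each list. They were 6, 6, 6, 5 and 6 of 6 genes of the nuclear complex, 9, 8, 9, 8 and 8 of 10 genes of endocytosis and turnover, and 5, 5, 5, 4 and 5 of 6 other targets. Most protease and nuclear complex genes thus had a gene-end peak in each list, as did 51.1% to 57.8% of all genes. At equal length the protease counts were unchanged, and those of the nuclear complex were 6, 6, 5, 5 and 6. The shares of all genes were then 45.9% to 53.2%.

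Among these 38 genes, 24 had more locus peaks in Prog-like CK19 than in EpCAM-high CK19 (42.5% of all genes did) and 9 had fewer (20.6%). For Sox9, 22 had more (36.4%) and 12 fewer (25.1%). With lists of equal length, 17 had more and 10 fewer among CK19 lists (27.1% and 24.9% of all genes), and 14 had more and 10 fewer among Sox9 lists (26.2% and 25.4%). The sums were 117, 136, 245, 242 and 87 as deposited. Mfng, another fringe, was open at a gene end in Prog-like CK19 and not in EpCAM-high CK19, with 2 and 0 locus peaks (6.5% of all genes showed this gene-end pattern). Heyl, a target of the same family as Hey1, had 1, 3, 0, 0 and 1 locus peaks, none of them Prog-like. Rbpj, the DNA-binding factor of the pathway, had 3, 3, 8, 7 and 3 locus peaks but no gene-end peak in Prog-like Sox9. Rbpj, Heyl and the target Hes7 were open at a gene end in Tumor and not in Prog-like Sox9, as were 5.4% of all genes.

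Genes with the most similar counts were listed for the 4 members with 20 or more locus peaks, by the summed absolute difference of the 5 equal-length counts. Nearest to Notch1 were Adam17, Btk and Gdi2 at a distance of 1, shared by 5 genes. Nearest to Notch2 were Wdr25, Cradd and Col15a1 at 3, shared by 8. Slc52a3 matched Jag1 exactly, followed by Ahnak2 and Tbpl1 at 1, and Gm30599, Mt2 and Crip2 matched Hes1 exactly. With counts this small, many genes tie.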

How the data were processed

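The 5 narrowPeak lists analysed here, deposited by the authors, hold no values per sample. Per the submitters' processing notes, Bowtie 1.1.2, MACS2, HOMER, deepTools and the build mm10 were used; versions of the other tools were not stated in these sources. Pooling, read shift and duplicate removal are stated neither in labels nor in files, and each can move peak counts and edges. The deposited fold enrichment is a linear ratio, and the deposited p and q columns are −log10 values. Both are the authors' and only describe or rank peaks within a list; the lowest −log10 q corresponds to a q of 0.05. A longer list can come from deeper sequencing, hence the counts at equal length.

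Gene positions were those of RefSeq GRCm38.p6, without exons, so exons, introns and UTRs were not separated. A strand was known for 14730 of 21883 protein-coding genes. Overlaps of at least 1 bp were computed in Python 3.11.15 with pandas 2.3.3, numpy 2.4.6 and scipy 1.17.1, and checked on simulated peaks. Intervals are exact Clopper-Pearson 95% intervals; peaks and neighbouring genes are not independent. The genes and lists were chosen with earlier results of these data known. All 10 genes are described. Regions named are those at gene ends, those with the highest −log10 q, and up to 3 per class and gene held by both lists of one kind and neither of the other. Pathway genes are named where a gene-end peak differs within a pair both as deposited and at equal length. Most similar genes are 3 per member, ties broken by gene length. Alternatives were equal length, −log10 q of 5 or more, a 2500 bp window, summits only, starts only, other flanks and a 50% overlap.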

Additional observations from a re-analysis of the deposited data

How the results depend on the processing

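Of 110 recomputed counts, differences and shares, 93 stayed within 1.5 times the reported value or its interval and kept their direction. Starts alone (8 genes with a strand) gave gene-end counts of 5 for EpCAM-high Sox9 and Prog-like CK19, 4 for Prog-like Sox9 and 3 for Tumor. With 50 kb flanks, the summed locus peaks were 83, 94, 105, 98 and 45 in list order. At equal length they were 24 (EpCAM-high Sox9), 29 (Prog-like CK19) and 30 (Prog-like Sox9). Differences at equal length were 0 for Prog-like CK19 minus EpCAM-high CK19, −8 for Tumor minus EpCAM-high Sox9 and −14 for Tumor minus Prog-like Sox9. The direction turned for Prog-like CK19 minus Prog-like Sox9 (−1) and EpCAM-high CK19 minus EpCAM-high Sox9 (5). Shorter lists hold fewer peaks by construction; beyond that the cause was not tested. No paired analysis was possible because the lists carry no values per sample, and no replicate could be left out for the same reason. Read depth is unknown, so a missing peak may be one that was not detectable.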

Other observations

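Several further pathway genes had unequal counts in the kinds of list. Dner, a ligand-like membrane protein, had 0, 1, 21, 18 and 0 locus peaks in the list order of the report, and Dll1, a Delta-like ligand, had 3, 7, 1, 3 and 2. The coactivator genes Maml2 and Maml3 had 17, 17, 42, 47 and 2, and 19, 27, 38, 40 and 20, respectively. Numb, an inhibitor of Notch, had 1, 2, 10, 9 and 1, and Fbxw7, which marks the freed receptor for breakdown, had 6, 3, 18, 14 and 1. Nrarp, a feedback inhibitor that Notch induces, went the other way, with 4, 3, 1, 1 and 2. These 7 genes were chosen after their values were seen, and the counts are as deposited, from lists of unequal length.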
